A study of Populus ussuriensis with 20 samples.

Results

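Transcripts of the rooting stem base of Populus ussuriensis were compared between 8 h and 4 h after transfer to medium with 200 µM KH2PO4. The 4 libraries, 2 at each time, were chosen by their labelled phosphate level and time from the 20 of the series. Populus ussuriensis is a poplar that is propagated by stem cuttings. Cuttings from 3-week-old plants had stood for 5 days on solid Woody Plant Medium, under 16 h of light and 8 h of darkness at 25 °C, until root primordia had appeared. They were then placed in a modified liquid Woody Plant Medium with either 10 or 200 µM KH2PO4, the phosphate salt, and their basal ends were cut off 2, 4, 8, 12 or 24 h later for extraction of total RNA. The groups used here were 200 µM at 4 h and at 8 h, and for comparison 10 µM at 4 h and at 8 h, with 2 libraries each. No genotype, transgene or other agent is labelled in any of them. The labels do not say whether the libraries of a group came from separate cultures, or how many cuttings went into one, so a p-value reflects how far these libraries spread, and that spread may be technical in part.

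Adventitious roots arise from stem tissue, and in cuttings they grow out of primordia that form near the wound at the base. Auxin, sugars, wounding and mineral supply are known to act on this process, and phosphate is the form in which plants take up phosphorus. Plant transcripts also follow the circadian clock and the light period. Every hour after transfer was an hour of the day as well, and the design cannot tell these apart. In bulk tissue, fewer cells of a type and less RNA per cell cannot be told apart either.

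The table of values named genes by identifier alone. It does not pair identifiers with gene names or descriptions, and no annotation was used here. Genes are therefore described by level, length and time course and not by function, and the labelled tissue could not be checked against marker genes. At most 2 genes that rose and 2 that fell are named. They are those with the largest change in each direction among the genes that passed the test and whose groups did not overlap.

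Values were FPKM, the fragments of a gene divided by the length of the gene and scaled to the library's total of fragments. The 4 libraries held between 14465879 and 15569419 fragments, and FPKM above 0 was found for 28767 to 28882 genes at 4 h and 28865 to 28963 at 8 h. Of the 34699 genes in the table, 24934 were tested, those that reached 1 FPKM in 2 or more of the 20 libraries, on log2(FPKM + 1). This scale understates the fold change of weakly expressed genes.

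Libraries of 4 h and of 8 h at 200 µM differed little more from each other than replicate libraries did. Across the tested genes the log2 differences between the libraries of 4 h and those of 8 h had SDs of 0.331, 0.340, 0.386 and 0.383 in the 4 possible pairs. The replicates themselves differed with an SD of 0.299 at 4 h and 0.343 at 8 h. Of the pairs across time, the 2 with replicate 1 of 4 h thus differed by slightly less than the replicates of 8 h did, and the 2 with replicate 2 of 4 h by more. Correlations across genes were 0.985 and 0.981 within the replicate pairs and 0.976 to 0.982 across time. The median change was -0.01 (log2), and 92.7% of the tested genes had a mean change of less than 0.5 in either direction.

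**Figure D1:**
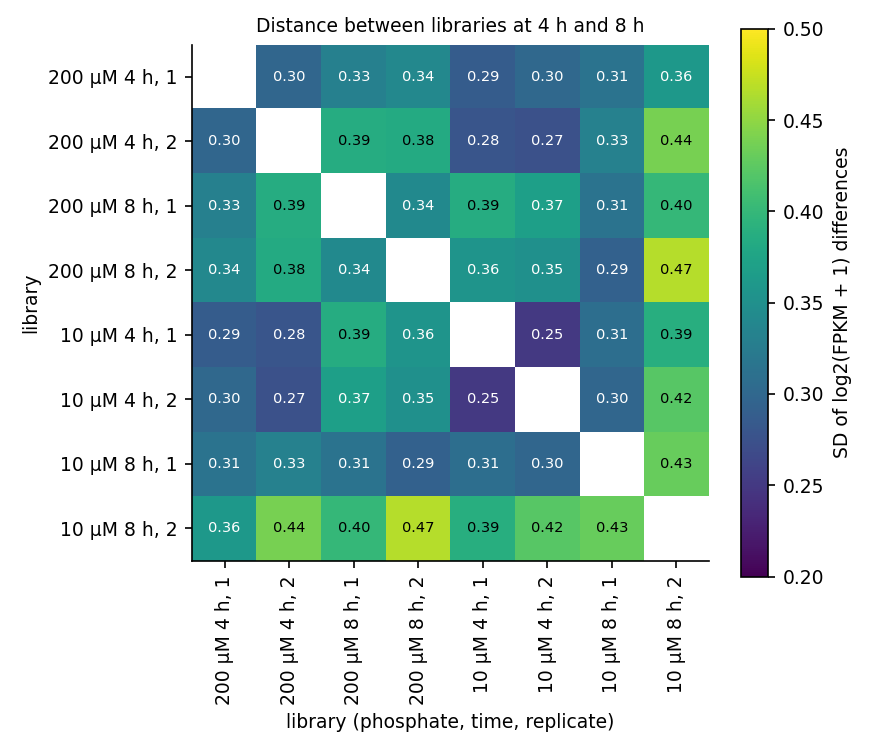
SD over 24934 genes of the difference in log2(FPKM + 1) between each 2 of the 8 libraries at 4 and 8 h, labelled by phosphate level, time and replicate. Replicate 2 at 10 µM and 8 h is the farthest from its own replicate (0.43), and at 200 µM the replicates differ by 0.30 at 4 h and 0.34 at 8 h.

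At 200 µM KH2PO4, 18 genes changed between 4 and 8 h, of which 5 rose and 13 fell. These were 0.0722% of the tested genes (0.0201% higher and 0.0521% lower). The 5 that rose gained between 0.60 and 1.34 on the log2 scale, and the 13 that fell had log2 changes from -1.61 to -0.74. In FPKM the risers were 1.57 to 2.59 times as high at 8 h. The fallers had been 1.71 to 8.09 times as high at 4 h, with a median of 2.58. A log2 change of at least 1 was reached by 2 of the 5 and 9 of the 13.

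Potri.014G106800 had the largest drop in FPKM of the 13. It measured 31.1 and 37.9 FPKM in the libraries of 4 h and 10.2 and 11.1 FPKM in those of 8 h. The later libraries were close to each other and both lay far below the earlier pair. The values rested on 1889 and 2477 fragments at 4 h and 648 and 703 at 8 h, over a gene length of 4193 bases. The means were 34.5 ± 4.8 and 10.7 ± 0.67 FPKM (SD, n = 2 each). On the log2 scale it changed by -1.60 ± 0.21 (SE), with a Benjamini-Hochberg adjusted p of 0.0246 in limma.

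Potri.014G106800 was not on a steady decline. At 200 µM it had stood at 16.5 ± 4.0 FPKM at 2 h, and it was back at 29.6 ± 0.61 FPKM at 12 h and at 18.5 ± 2.8 FPKM at 24 h (SD, n = 2 each). The level at 8 h was the lowest of the 5 times and that at 4 h the highest. At 10 µM the gene measured 32.1 and 25.5 FPKM at 4 h and 18.8 and 24.9 FPKM at 8 h. There the groups also did not overlap, but replicate 2 at 8 h came close to the lower library of 4 h. Its lowest mean at 10 µM was at 24 h, with 13.5 ± 0.35 FPKM (SD, n = 2).

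Potri.003G141800 fell by 1.61 on the log2 scale (SE 0.25, limma Benjamini-Hochberg adjusted p 0.0363). Its FPKM went from 11.7 and 11.9 at 4 h to 3.90 and 2.61 at 8 h. The 2 early libraries were almost equal, and the late ones differed more from each other but stayed well below. They held 284 and 311 fragments of this gene of 1678 bases at 4 h and 99 and 66 at 8 h. The course resembled that of Potri.014G106800, with 6.01 ± 0.65 FPKM at 2 h, 11.0 ± 2.5 FPKM at 12 h and 8.86 ± 1.5 FPKM at 24 h (SD, n = 2 each). At 10 µM it measured 8.76 and 7.55 FPKM at 4 h and 4.05 and 7.68 FPKM at 8 h, so that replicate 2 at 8 h lay within the range of 4 h.

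Potri.006G212200 had the largest rise on the log2(FPKM + 1) scale, while the ratio of mean FPKM was slightly higher in Potri.012G076700 (2.59 against 2.55). This short gene of 441 bases had 61.1 and 44.7 FPKM at 4 h and 119 and 152 FPKM at 8 h, from 390 and 307 fragments and then 793 and 1006. Both later libraries were high, although the replicates spread at each time. The log2 change was 1.34 ± 0.18 (SE) with an adjusted p of 0.0246 (limma, Benjamini-Hochberg), and the means were 52.9 ± 12 and 135 ± 23 FPKM (SD, n = 2 each). The level stayed up afterwards. It stood at 49.5 ± 3.9 FPKM at 2 h, 177 ± 2.2 FPKM at 12 h and 232 ± 39 FPKM at 24 h, the highest of the 5 means. At 10 µM its libraries measured 61.8 and 78.4 FPKM at 4 h and 140 and 105.4 FPKM at 8 h, again without overlap, with an adjusted p of 0.507 for the change there (limma, Benjamini-Hochberg).

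Potri.012G076700 was a weakly expressed gene of 549 bases. It measured 2.27 and 2.34 FPKM at 4 h and 5.89 and 6.05 FPKM at 8 h. The replicates agreed closely at both times, but the earlier values came from only 18 and 20 fragments and the later ones from 49 and 50. Its log2 change was 1.08 ± 0.17 (SE, limma Benjamini-Hochberg adjusted p 0.0363), but the call depended on the processing. It was lost when 5 in place of 1 was added to the FPKM (log2 change 0.59, adjusted p 0.0592), in limma with no filter on low values (adjusted p 0.0701) and under voom, run on recovered fragments (1.35, adjusted p 0.151). The mean at 4 h was the lowest of the 5 times. The gene had 5.21 ± 1.6 FPKM at 2 h, 6.29 ± 0.75 FPKM at 12 h and 4.37 ± 0.89 FPKM at 24 h (SD, n = 2 each). The mean at 4 h was also the lowest at 10 µM, with 5.95 ± 0.19 FPKM at 2 h, 2.37 ± 0.40 FPKM at 4 h and 4.38 ± 0.15 FPKM at 8 h (SD, n = 2 each).

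**Figure D2:**
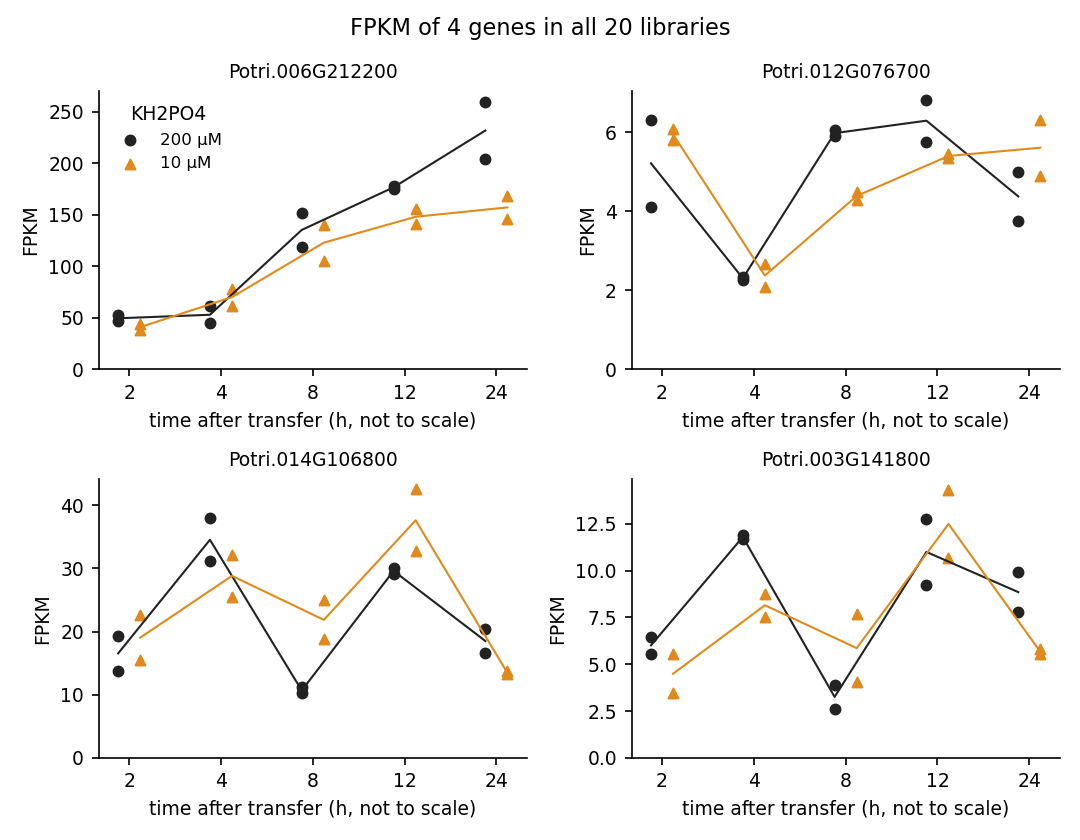
FPKM of the 4 named genes in each of the 20 libraries against time after transfer, with circles for 200 µM and triangles for 10 µM KH2PO4 and lines through the means of 2 libraries. Potri.014G106800 and Potri.003G141800 drop to 10.7 and 3.26 FPKM at 8 h at 200 µM and are higher again at 12 h, whereas Potri.006G212200 goes on to 232 FPKM at 24 h.

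The other 14 genes covered a wide range of levels. Over all 13 fallers the mean at 4 h lay between 1.89 and 37.6 FPKM (median 14.9) and that at 8 h between 0.233 and 17.04 FPKM (median 5.35). The steepest ratio, 8.09, belonged to the weakest of them, which had 7 and 10 fragments left at 8 h after 78 and 58 at 4 h. In 3 fallers a library of the 4 held fewer than 20 fragments. The 5 risers were mostly stronger, with means of 2.30 to 96.2 FPKM at 4 h (median 52.9) and 5.97 to 177 FPKM at 8 h (median 109). Gene lengths ran from 441 to 2118 bases in the risers (median 1223) and from 1167 to 4193 bases in the fallers (median 1840), beside a median of 1807 bases over all tested genes. In each of the 18 both libraries of one time lay above both of the other, which was also the case for 18.5% (higher) and 21.9% (lower) of all tested genes.

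**Figure D3:**
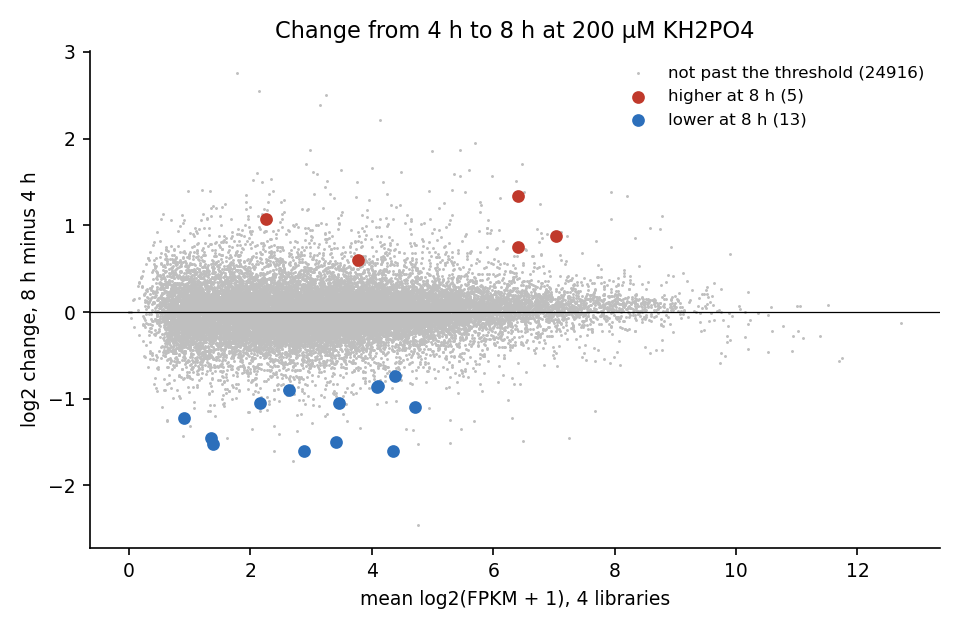
Log2 change from 4 h to 8 h at 200 µM KH2PO4 against the mean log2(FPKM + 1) of the 4 libraries, 1 point for each of 24934 genes. The 5 genes past the threshold that were higher at 8 h are red and the 13 that were lower are blue. Grey genes, some with larger changes up to 2.75, did not pass.

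At 200 µM 11 of the 13 fallers had both their highest mean at 4 h and their lowest at 8 h, beside 4.69% of all tested genes. At 10 µM 0 of the 13 did, beside 3.49% of all tested genes, and 13 genes are too few to set apart from that share. At 200 µM the mean at 4 h was the highest of the 5 times in 12 of the 13 and the mean at 8 h the lowest in 11 of the 13. Over all tested genes, 15.6% were highest at 4 h and 19.1% lowest at 8 h. Choosing genes on a fall from 4 to 8 h favours this shape, so the counts describe the genes and are no test. At 10 µM the mean at 4 h was the highest in 4 of the 13 and the mean at 8 h the lowest in 1, beside 18.9% and 14.9% of all tested genes, and 24 h was the lowest in 10 of the 13, beside 16.98%. Back at 200 µM, the level at 12 h lay between those of 4 h and 8 h in 11 of the 13, and at 24 h in 12 of the 13. Of all tested genes with a lower mean at 8 h, 29.4% and 32.4% did so. Relative to each gene's own mean over the 5 times, the 13 had a median log2 level of -0.05 (2 h), 0.59 (4 h), -0.65 (8 h), -0.04 (12 h) and 0.15 (24 h). The intervals after 8 h share the libraries of 8 h with the comparison, so this return is given as levels only.

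The risers were less uniform. The mean at 8 h was the highest of the 5 in 3 of the 5 genes, against 15.4% of all tested genes, and the mean at 4 h the lowest in 3, against 16.0%. At 10 µM the mean at 8 h was the highest in 0 of the 5 and that at 24 h in 3, beside 13.4% and 28.6% of all tested genes. At 200 µM and 12 h the level had gone beyond that of 8 h in 2 genes and lay between those of 4 and 8 h in 3. At 24 h it lay between them in 4, and in the other, Potri.006G212200, beyond. Of all tested genes with a higher mean at 8 h, 37.2% lay beyond and 28.9% between at 12 h. At 24 h the shares were 40.7% beyond and 30.8% between, and 5 genes are too few to compare with them.

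**Figure D4:**
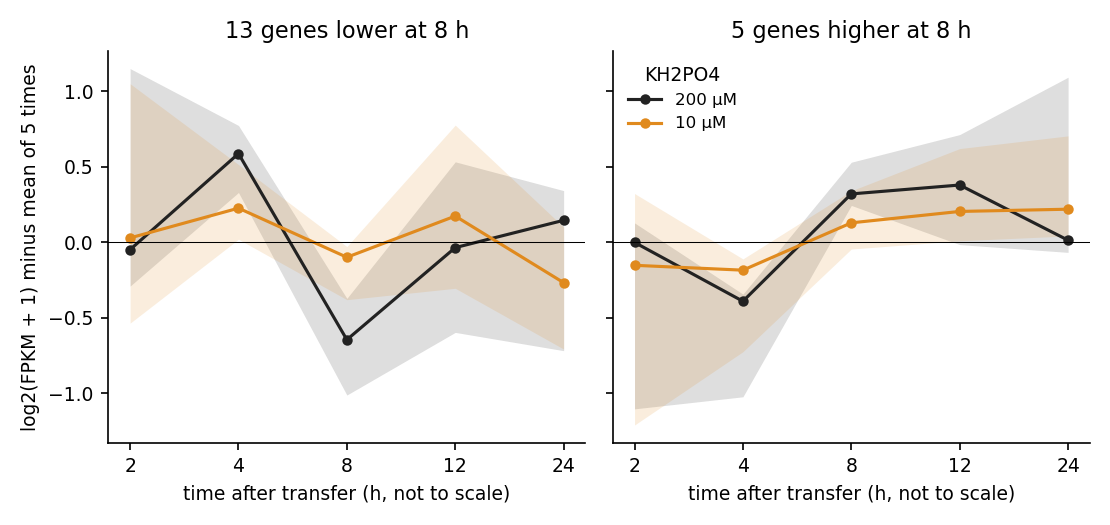
Log2(FPKM + 1) relative to the gene's own mean over the 5 times, for the 13 genes that fell (left) and the 5 that rose (right) between 4 and 8 h at 200 µM. Lines are medians over genes and bands run from the lowest to the highest gene; at 8 h the median of the fallers is -0.65 at 200 µM and -0.10 at 10 µM KH2PO4.

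The calls depended on having both libraries at each time. With 2 libraries against 2, an exact permutation test of a single gene cannot go below p = 0.333, so the calls rest on the variance that limma shared over genes and over all 10 groups. Without replicate 1 at 4 h limma called 0 genes (2582 at an unadjusted p under 0.05), and without replicate 2 at 4 h also 0 (1385). Without replicate 1 at 8 h, 1 gene passed, and without replicate 2 at 8 h, 9 passed, of which 0 and 1 were among the 18. In a fit on the 4 libraries alone 1 gene passed, which was not among the 18, and with the 8 libraries of 4 and 8 h 2 passed, 1 of them shared. The direction of all 18 genes was the same in each of these fits, which was fixed in advance and is no test. Their groups did not overlap, so leaving out a library could not reverse a change. The fits on fewer groups kept the same means at 4 and 8 h. With no filter on low values 4 genes passed, among them Potri.014G106800 (adjusted p 0.0464, limma), while Potri.006G212200 and Potri.003G141800 missed the threshold (0.0516 and 0.0701). The shared variance also took in libraries that stood apart from their replicates. Without the libraries of 10 µM and 8 h, 48 genes passed at 200 µM (20 higher and 28 lower), all 18 among them, and without the 4 libraries at 2 h 31 passed (6 and 25), 16 of them shared.

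At 10 µM KH2PO4 the same interval, measured in 4 other libraries, gave 0 genes past the threshold in limma (0%) and 0 with voom on recovered fragments. An unadjusted p under 0.05 was reached by 1861 genes (7.46%) there and by 2530 (10.1%) at 200 µM. The libraries of 10 µM and 8 h differed from each other with an SD of 0.430 (log2), the highest of the 10 groups. Without replicate 1 of that group, where replicate 2 then stood alone, 141 genes passed at 10 µM (45 higher and 96 lower), and without replicate 2 the count was 0.

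The 18 genes had changes of the same sign at 10 µM, each of them smaller and none past the threshold. The share of all tested genes with the same sign at both levels was 60.02%. Log2 changes at 10 µM were 0.13 to 0.80 in the risers (median 0.31) and -0.69 to -0.05 in the fallers (median -0.35), beside a median of 0.00 over all tested genes. The genes had been chosen on their change at 200 µM, which favours larger values there. The spread between replicates at 10 µM was also part of the variance used in that choice. This favours genes whose groups do not overlap at 10 µM, so the counts below are descriptions and no test. The groups did not overlap at 10 µM in 5 of the 5 and 10 of the 13, beside 18.3% (higher) and 17.3% (lower) of all tested genes. Replicate 1 at 8 h lay below both libraries of 4 h in 12 of the 13 fallers and replicate 2 in 10 of them, beside 37.2% and 37.7% of all tested genes. The median change of the fallers was -0.41 with replicate 1 and -0.27 with replicate 2, beside 0.00 and 0.02 over all tested genes.

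**Figure D5:**
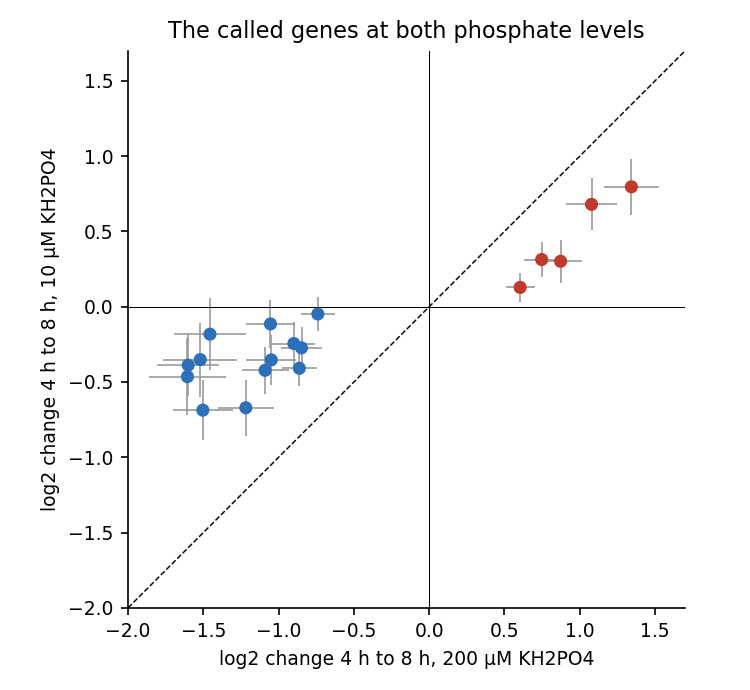
Log2 change from 4 h to 8 h at 10 µM against that at 200 µM KH2PO4 for the 18 called genes, with bars of 1 SE from limma and a dashed line of equal change. All points lie in the quadrants of equal sign and nearer to 0 at 10 µM, where the fallers range from -0.69 to -0.05.

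The phosphate levels were not shown to differ in the change of any gene. limma's test of the difference gave 0 genes (0%), with 987 genes (3.96%) at an unadjusted p under 0.05 and a smallest Benjamini-Hochberg adjusted p of 0.695; voom on recovered fragments also gave 0. For Potri.014G106800 the change at 200 µM minus that at 10 µM was -1.21 ± 0.29 (log2, SE), and for Potri.003G141800 it was -1.14 ± 0.36, both with an adjusted p of 0.998 in limma. The changes of Potri.006G212200 and Potri.012G076700 differed by 0.55 ± 0.26 and 0.40 ± 0.24, again with the larger value at 200 µM and the same adjusted p. For a typical gene the 95% confidence interval of this difference reached 0.50 (log2, median) to either side. Without replicate 1 at 10 µM and 8 h, 46 genes passed (39 with the higher change at 200 µM).

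At 8 h the fallers were lower at 200 µM than at 10 µM. Both libraries of 200 µM lay below both of 10 µM in 13 of the 13, as in 14.4% of all tested genes. At 4 h both lay above in 8 of the 13, as in 18.0% of all tested genes. The libraries that chose the genes are on one side of both comparisons, so these counts are descriptions.

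Larger mean changes were more often rises, and few of them passed. A log2 change of at least 1 without overlap was measured for 122 genes that were higher at 8 h (0.489%) and 70 that were lower (0.281%), with extremes of 2.75 and -2.46. Only 2 of the 122 and 9 of the 70 were past the threshold. Of the 122, 70 (57.4%) had the same sign at 10 µM, and of the 70 lower ones 57 (81.4%), beside 60.02% of all tested genes. Medians at 10 µM were 0.17 and -0.35, beside 0.00 over all tested genes there, and 1.20 and -1.18 at 200 µM. The genes had been chosen on a change of at least 1 at 200 µM, so medians beyond 1 there were fixed in advance. At 10 µM, 69 genes were higher (0.277%) and 53 lower (0.213%) by the same measure. The counts at 200 µM depended on the pseudocount: they were 327 and 260 with 0.1, and 42 and 15 with 5.

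Replicate 2 at 200 µM and 8 h held many of the high values. Over all tested genes, 377 differed at least 2-fold between the replicates of 8 h on the log2(FPKM + 1) scale, and replicate 2 was the higher in 290 of them and replicate 1 in 87. At 4 h the numbers were 283, 122 and 161. Among the 122 genes with the larger rises, the replicates of 8 h differed this much in 23, with replicate 2 higher in 19. Their part in the counts of larger rises was not tested.

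Among the 100 most abundant genes 0 were called, a number too small to compare with the 0.0722% over all tested genes. These genes, with the highest mean FPKM over the 4 libraries, each at 493 FPKM or more, took 16.2% and 15.6% of the summed FPKM at 4 h and 13.9% and 16.2% at 8 h. The smallest limma Benjamini-Hochberg adjusted p among them was 0.209, and their changes ran from -0.59 to 1.11 (log2) with a median of 0.03. The groups did not overlap in 17 that were higher and 17 that were lower, close to the 18.5% and 21.9% of all tested genes. The spread of changes narrowed with level: the SD of the log2 change was 0.307 in the 6925 genes with a mean of 1 to 5 FPKM over all libraries and 0.230 in the 1156 with 100 FPKM or more. By level, the called genes were 1 riser and 4 fallers among the 6925 genes from 1 to 5 FPKM (0.0722%), 1 and 7 among 10102 from 5 to 20 FPKM (0.0792%), 1 and 2 among 5297 from 20 to 100 FPKM (0.0566%), and 2 and 0 among the 1156 at 100 FPKM or more (0.173%). Of the 1454 tested genes below 1 FPKM, 0 were called.

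Transcripts present at one time and absent at the other were rare and weak. Of the 34699 genes, 17 had 0 fragments in both libraries of 4 h and at least 3 in both of 8 h. The opposite was counted for 15. None of these had more than 11 fragments in a library. Of these, 2 of the 17 and 3 of the 15 passed the filter on low values and were tested. Whether the counts of 17 and 15 exceed what sampling of rare transcripts gives was not tested.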

How the data were processed

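The deposited values were FPKM, which the authors had computed for 34699 genes and 20 libraries (0 further columns). Per the submitters' processing notes the tools were HISAT2 2.1.0 and Bowtie2 2.2.3, with no roles given. The genome build, annotation, counting program, strand setting and treatment of reads from near-identical genes were not given in the sources used here, so values of genes with close copies are uncertain.

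Gene lengths, library totals (14053677 to 15764764 fragments) and fragments were recovered from the steps of the FPKM values. All 24934 tested genes came out whole to within 0.06 of a fragment, and the recovered fragments summed to within 7 to 38 of each total. The intervals and SDs cover these libraries only.

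limma 3.58.1 in R 4.3.3 was fitted to log2(FPKM + 1) of all 20 libraries, with 1 mean per group, variances moderated with a mean trend (median 14.1 total degrees of freedom), two-sided tests and Benjamini-Hochberg adjustment over all tested genes at 0.05. The fit was also run on simulated data with independent normal noise. That noise met the assumptions of the fit, so the run is no support for the calls. Named genes were the 2 largest rises and 2 largest falls in log2(FPKM + 1) past the threshold without overlap, the rule for tables without descriptions. Gene lists and promoter motifs drawn up for this work were to be matched to descriptions and sequences; none was given, so they were void and not run. The comparison, lists and tests were chosen with earlier results of these data known.

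The labels do not say whether replicate numbers pair the libraries of 4 and 8 h. Deviations of same-numbered libraries at these times correlated across genes with r = 0.04 at 200 µM and -0.15 at 10 µM. Over all pairs of groups r ran from -0.43 (200 µM at 2 and 8 h) to 0.50 (200 and 10 µM at 2 h). A weak correlation cannot exclude that libraries shared a culture or a run.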

Additional observations from a re-analysis of the deposited data

How the results depend on the processing

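Of the 18 genes that changed between 4 and 8 h at 200 µM, all kept their direction under each alternative in which they were measured. For most alternatives this was fixed in advance, because the groups of the 18 did not overlap and the order of their values was left unchanged. Only quantile normalization, median scaling and voom could have altered that order. The count moved to 4 with no filter on low values (0 higher, 4 lower), 1 in a fit on the 4 libraries alone, 2 on the 8 libraries of 4 and 8 h, 48 without the libraries of 10 µM and 8 h, and 31 without the 4 libraries at 2 h, which was chosen after seeing the data. It ranged from 0 to 9 when a library of the contrast was left out. It was 22 and 15 with pseudocounts of 0.1 and 5, 13 with a mean FPKM of at least 5, 19 with quantile normalization, 17 with median scaling, 19 with robust moderation and 14 with voom on recovered fragments (12 shared). With no filter 1 gene passed at 10 µM and 1 in the test of the difference. At 10 µM the count ranged from 0 to 141, and that of the difference from 0 to 46, when a library was left out. A fit that left 1 library in a group assumes that it varies like the others. With the replicate number as a block, 23 genes passed at 200 µM (17 shared), 0 at 10 µM and 0 for the difference. With the numbers at 10 µM and 8 h crossed, 0 passed at 10 µM. Larger mean changes numbered 192, and 587 and 57 with pseudocounts of 0.1 and 5. The cause of these shifts was not tested. Depth limits the weakest genes: the median over tested genes and libraries was 253 fragments.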

Other observations

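The gap between replicate libraries at 200 µM and 8 h was correlated across genes with the gap between replicates in some of the other groups. Across the 24934 tested genes, which are not independent replicates, the deviation of replicate 1 from its group mean at 200 µM and 8 h correlated with r = -0.43 with that of replicate 1 at 200 µM and 2 h, -0.28 at 10 µM and 2 h, -0.24 at 10 µM and 8 h and -0.24 at 10 µM and 12 h. With the other 5 groups r lay between -0.05 and 0.09, at 0.04, 0.03 and 0.00 for 200 µM at 4, 12 and 24 h and at -0.05 and 0.09 for 10 µM at 4 and 24 h. Replicate 2 at 200 µM and 8 h was closer to replicate 1 at 10 µM and 8 h (SD of log2 differences 0.294) than to its own replicate (0.343), and farthest from replicate 2 at 10 µM and 8 h (0.466). The other libraries of 4 and 8 h at 200 µM were also each closer to a 10 µM library than to their replicate. Replicate 1 at 8 h lay at 0.314 and 0.400 from replicates 1 and 2 at 10 µM and 8 h. At 4 h, replicate 1 lay at 0.287 and 0.302 from those at 10 µM, and replicate 2 at 0.279 and 0.274. The replicates at 200 µM and 4 h were 0.299 apart.

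Of the 18 called genes, 4 have identifiers with the prefix 017, out of 859 tested genes with that prefix (0.466%), beside 0.0722% over all tested genes. This was noticed after the genes had been called, and all 4 were fallers. The prefix 017 had the highest share of all prefixes, so it was picked from many. The next was 012, with 2 of 870 genes (0.230%).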
